A study of Mus musculus with 21 samples.

Results

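The genes described here are 35 mouse genes of the interferon response and of antigen presentation. They were taken by symbol from a list of names, not by any measured value, but earlier results of these data were known when it was chosen. All 35 were found among the 31053 genes of the single-cell count table and among the 21938 protein-coding genes set against the open chromatin peaks. By role they are 4 regulators (Stat2, Irf1, Irf7 and Irf9), 12 antiviral genes (Isg15, Ifit1, Ifit2, Ifit3, Ifi35, Ifi44, Ifih1, Oasl2, Oas1a, Rsad2, Bst2 and Usp18), 12 interferon-inducible GTPases (Gbp2, Gbp3, Gbp4, Gbp5, Gbp7, Igtp, Irgm1, Irgm2, Iigp1, Tgtp1, Tgtp2 and Ifi47) and 7 genes of antigen presentation on MHC class I (Psmb8, Psmb9, Tap1, Tapbp, H2-K1, H2-D1 and B2m).

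The study profiled stromal cells of the mouse colon, and 9 of its 21 samples were used here. 1 droplet library counted the transcripts of gp38+CD90+ colon cells, named total iMSC in its label. It came from wild-type C57BL/6, female, aged 12 weeks, at D3 of 2% DSS (dextran sulfate sodium, which damages the lining of the colon when drunk). 8 ATAC-seq libraries, 2 for each of 4 sorted populations, mapped open chromatin in C57BL/6 males, also aged 12 weeks, whose labels name no treatment: MRISC, CD34 SP (CD34 single positive), CD138 (cells without CD34 that carry CD138, the product of Sdc1) and Myofibroblast. The 12 bulk colon RNA libraries (wild type and Map3k2-/-, 16 weeks, water or 2% DSS at D1) were not analysed here. All 4 sorted populations were gp38-positive and negative for CD45, Epcam and CD31, and no label says which antibodies set MRISC apart. With 1 RNA library and 1 peak list per population and kind, there was no spread between animals to test against, so every comparison below is a description of these libraries, and no cells on water were there to set beside the cells on DSS.

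Of 11484 barcodes, 11376 were kept as cells (500 genes or more, mitochondrial share no higher than 10%), with 72920197 UMIs in all and a median of 6052 per cell. Clustering without any interferon gene gave 11 clusters, of which 9 were stromal and held 11130 cells. 5 of these are called here by their 2 leading genes, as Cxcl13-Mgp (2066 cells), Kcnk2-Tnc (2006), Spock3-Stmn2 (1844), Ddah1-Efnb2 (1633) and Lcn2-Saa3 (936). Ptx3-Ebf1 (1356 cells) passed 5 of 7 markers of CD34+CD81+ fibroblasts, but not Cd34 itself. The other stromal clusters were smooth muscle or myofibroblast-like (1120 cells, called muscle-like below), mesothelium-like (89 cells) and crypt-top fibroblast-like (80 cells, which also passed 3 pericyte markers and is called crypt-top-like below). The transcript of gp38, Pdpn, lay between 111 and 400.4 CPM (a gene's counts per 1000000 UMIs) over the 9 stromal clusters and that of CD90, Thy1, between 36.4 and 197 CPM, while Ptprc, which encodes CD45, had at most 1 UMI in each. Cd34 stood at 644 CPM in Ptx3-Ebf1, beside 668 in Cxcl13-Mgp and 648 in Ddah1-Efnb2. The 7 CD34+CD81+ markers summed to 6731 CPM in Ptx3-Ebf1 and to 9217 CPM in mesothelium-like cells. An estimated 11.9% of the stromal UMIs was free RNA from broken cells, and no doublets were removed.

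Interferons are secreted signals of infection and inflammation. Type I and type III interferons signal through a complex with STAT2 and IRF9, which binds an interferon-stimulated response element in the promoters of antiviral genes, whereas interferon gamma acts through a shorter gamma-activated site and through the IRF1 that it induces. The GTPases of the guanylate-binding and immunity-related families attack the vacuoles of intracellular microbes and are known above all as interferon gamma targets, and the antigen presentation genes cut, carry and display peptides to CD8 T cells.

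The promoters of the members are shown first, because the factors named above read their sequence. The RefSeq table of promoter windows (250 bases before to 50 after a start, GRCm38.p6) held 37 windows for 32 of the 35 members, with none for Usp18, Gbp4 and Iigp1. The IRF word GAAANNGAA, a core of the interferon-stimulated response element, was searched on both strands and lay in 19 of the 37 member windows (51.4%), beside 8.21% of all 20150 windows in the table. The same core with the other spacing, GAANNGAAA, lay in 14 member windows (37.8%, beside 6.98% of all), and matches to the 2 words can overlap. Together, 23 member windows (62.2%) held at least 1 of the words, beside 14.1% of all. The 6 promoters below belong to the members of highest transcript level among the 14 that had the first word and a peak over the promoter in all 4 populations. Such a peak overlaps the window around the start in the GENCODE annotation, not the printed RefSeq window as such, and need not cover the word. The GENCODE and RefSeq starts lie 263 bp apart at Irgm1, 61 at Gbp2 and at most 16 at B2m, Bst2, Igtp and Gbp7. By their RefSeq starts, these 6 were also open in all 4 populations. Each is written 5′ to 3′ along the gene's own strand, with matches to either IRF word on either strand in capitals.
B2m: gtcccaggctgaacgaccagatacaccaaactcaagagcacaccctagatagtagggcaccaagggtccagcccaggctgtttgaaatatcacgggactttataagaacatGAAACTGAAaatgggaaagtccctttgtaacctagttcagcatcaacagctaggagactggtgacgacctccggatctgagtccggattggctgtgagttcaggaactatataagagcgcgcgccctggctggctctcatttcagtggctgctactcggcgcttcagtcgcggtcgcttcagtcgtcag
Gbp2: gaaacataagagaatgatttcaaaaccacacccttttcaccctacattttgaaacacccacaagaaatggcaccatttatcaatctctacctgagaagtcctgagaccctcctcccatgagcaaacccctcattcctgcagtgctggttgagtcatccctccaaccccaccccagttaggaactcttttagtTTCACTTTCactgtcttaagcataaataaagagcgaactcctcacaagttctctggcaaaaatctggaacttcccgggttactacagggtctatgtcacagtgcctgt
Bst2: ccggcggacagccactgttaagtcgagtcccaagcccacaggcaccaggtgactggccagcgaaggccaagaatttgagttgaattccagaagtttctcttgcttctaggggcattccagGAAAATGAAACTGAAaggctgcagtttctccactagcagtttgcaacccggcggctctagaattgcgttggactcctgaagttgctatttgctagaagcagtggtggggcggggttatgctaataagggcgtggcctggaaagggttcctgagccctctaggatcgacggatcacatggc
Igtp: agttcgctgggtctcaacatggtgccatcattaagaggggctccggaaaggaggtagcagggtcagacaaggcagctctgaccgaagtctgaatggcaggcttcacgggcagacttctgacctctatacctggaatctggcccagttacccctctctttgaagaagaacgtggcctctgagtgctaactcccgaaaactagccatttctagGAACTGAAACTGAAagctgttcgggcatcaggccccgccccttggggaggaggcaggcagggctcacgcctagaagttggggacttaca
Gbp7: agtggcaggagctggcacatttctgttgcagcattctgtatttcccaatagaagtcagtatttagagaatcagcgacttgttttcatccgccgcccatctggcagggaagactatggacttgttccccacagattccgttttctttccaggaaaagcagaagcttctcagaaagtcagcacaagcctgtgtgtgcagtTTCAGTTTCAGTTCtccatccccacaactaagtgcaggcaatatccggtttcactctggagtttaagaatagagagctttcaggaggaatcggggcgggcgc
Irgm1: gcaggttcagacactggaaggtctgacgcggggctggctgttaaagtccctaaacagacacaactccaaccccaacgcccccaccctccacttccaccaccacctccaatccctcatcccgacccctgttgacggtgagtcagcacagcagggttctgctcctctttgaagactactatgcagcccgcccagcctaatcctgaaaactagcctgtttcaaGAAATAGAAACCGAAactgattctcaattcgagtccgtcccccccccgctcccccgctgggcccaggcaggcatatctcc

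These windows lie at chr2:122147437-122147736, plus strand (B2m), chr3:142620413-142620712, plus strand (Gbp2), chr8:71537423-71537722, minus strand (Bst2), chr11:58199306-58199605, plus strand (Igtp), chr3:142530086-142530385, plus strand (Gbp7) and chr11:48871371-48871670, minus strand (Irgm1). Counted from the start at 0 to the first base of a match, the IRF word stood at -139 in B2m, -58 in Gbp2, -130 and -124 in Bst2, -34 in Igtp, -52 in Gbp7, and -30 and -24 in Irgm1. In Bst2 and Irgm1 the matches overlap each other and read as 1 run of 3 repeats of the core, and in Igtp and Gbp7 the first word overlaps a match with the other spacing. Over all 19 members with the word there were 30 matches, with a median first base at -74, and 26 of them began within 150 bases before the start.

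A pair of further promoters, chosen after their values were seen, shows what the rule above left out. H2-K1, which encodes the heavy chain of a classical class I molecule, has the word only with the other spacing, beside a match to the NF-kB consensus. Ifi44, an antiviral gene of low level, has words of both spacings but no peak over its promoter in any of the 4 populations.
H2-K1: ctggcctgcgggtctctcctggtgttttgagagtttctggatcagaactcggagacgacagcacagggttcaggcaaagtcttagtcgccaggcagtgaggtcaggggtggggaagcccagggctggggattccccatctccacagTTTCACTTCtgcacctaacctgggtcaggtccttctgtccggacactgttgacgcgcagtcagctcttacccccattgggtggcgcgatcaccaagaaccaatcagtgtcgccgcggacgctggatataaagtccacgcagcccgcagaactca
Ifi44: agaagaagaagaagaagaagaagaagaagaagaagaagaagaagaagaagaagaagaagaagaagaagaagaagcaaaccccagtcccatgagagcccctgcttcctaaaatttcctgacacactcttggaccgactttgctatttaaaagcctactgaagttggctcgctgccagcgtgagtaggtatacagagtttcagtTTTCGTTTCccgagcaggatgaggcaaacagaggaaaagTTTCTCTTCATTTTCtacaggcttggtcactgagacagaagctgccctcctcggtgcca

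H2-K1 is shown at chr17:34000284-34000583, minus strand and Ifi44 at chr3:151749861-151750160, minus strand. The window of Ifi44 opens with a run of a simple repeat, and 76.2% of its 32-base pieces occur once in the genome.

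The words divided the roles. The IRF word was found in 9 of the 10 GTPases with a window, in 8 of 11 antiviral genes, in 1 of 4 regulators (Stat2) and in 1 of 7 presentation genes (B2m, the light chain shared by all class I molecules). The word of the gamma-activated site, TTCNNNGAA, lay in 12 of 37 member windows (32.4%, beside 7.74% of all), and 6 of the 12 members with it were GTPases (Gbp5, Gbp7, Igtp, Irgm2, Tgtp1 and Tgtp2). An IRF word of either spacing together with this word was found in 9 members, which is 24.3% of member windows beside 1.67% of all. In Bst2, Ifi35, Igtp, Irgm2, Tgtp1 and Tgtp2 these matches share bases (in Bst2 they begin at -136 and -130), so they are not separate elements there. Tgtp1 and Tgtp2 are also near-identical copies. The NF-kB consensus lay in 18.9% of member windows (4.97% of all), and 3 of its 6 members were the class I genes B2m, H2-D1 and H2-K1. The CCAAT box, a general promoter element, lay in 40.5% of member windows and 37.8% of all, but in 6 of the 7 presentation genes, while the AP-1 word TGANTCA lay in 13.5% of member windows and 6.998% of all. A match is a description of letters and not a measured binding site, and in the central 200 bp of the promoter peaks the shares were lower for members and for all genes alike (IRF word in 23.3% of 30 members and 3.78% of genes, other spacing in 16.7% and 3.48%, gamma-activated site in 10.0% and 3.999%, AP-1 word in 6.67% and 3.42%, NF-kB consensus in 0 members and 4.01% of genes).

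Most member promoters were open in all 4 sorted populations. A promoter is called open here when a peak of a population's total list overlaps the 300 bases around the GENCODE start (250 before, 50 after). MRISC had 30 of 35 members open (57.5% of all protein-coding genes), CD34 SP 29 (56.8%), CD138 26 (55.5%) and Myofibroblast 26 (51.6%). 25 members were open in all 4, beside 47.4% of all protein-coding genes. Among the genes at 10 CPM or more in the stromal cells, 84.2% were open in all 4, beside 23 of the 31 members at that level, so the members' share was not above that of other expressed genes. None of the 4 populations had a peak over the promoter of 5 members, 4 of which reached 10 CPM, beside 5.86% of the genes at that level. By the same call the promoters of Pdpn, Thy1, Cd34, Cd81, Sdc1, Acta2 and Myh11 were open in all 4, so it does not part the populations by such marker genes. The Epcam promoter was open in CD138 and Myofibroblast, and that of Pecam1, which encodes CD31, in CD34 SP, although all populations were sorted as negative for both proteins.

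Each peak is placed by the score percentile within its own list, the share of that list's peaks with a lower score. Open members had median percentiles of 94.2 (MRISC), 91.9 (CD34 SP), 96.5 (CD138) and 95.7 (Myofibroblast), beside 95.1, 92.9, 96.6 and 95.9 for all open promoters in the same order. All 7 presentation genes were open in all 4 populations with percentiles from 88.4 to 99.5, so that the group with the highest transcript levels also had no gap. Psmb9 and Tap1, which stand side by side, had the same percentiles (94.4, 88.4, 98.5 and 97.7 in that order), so they do not count as separate promoters here. For the genes whose promoters are printed above, percentiles are given at the GENCODE window, which differs from the printed one most at Irgm1. In the order MRISC, CD34 SP, CD138 and Myofibroblast, they were 97.4, 97.1, 99.2 and 97.9 at B2m, 91.7, 93.4, 96.3 and 95.3 at Gbp2, 98.1, 97.8, 98.6 and 97.8 at Bst2 and 93.9, 91.6, 97.9 and 96.1 at H2-K1. Those of the GTPases Gbp7 and Irgm1 were 95.5, 88.8, 94.8 and 92.4 and 97.3, 95.9, 94.9 and 95.1. Igtp was the exception among the printed promoters, with 72.2, 52.7, 15.7 and 88.6, and in CD138 its promoter peak was among the weakest of the list. The nearest peak edge at Igtp lay at -116 bp in MRISC, -111 in CD138 and -125 in Myofibroblast, so these peaks do not cover its IRF word at -34. In CD34 SP the edge lay at -17 bp. Irgm2 shares the percentiles of Igtp, because its GENCODE window overlaps the same peaks, while its RefSeq start lies 15359 bp away and is open in all 4 populations.

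**Figure D1:**
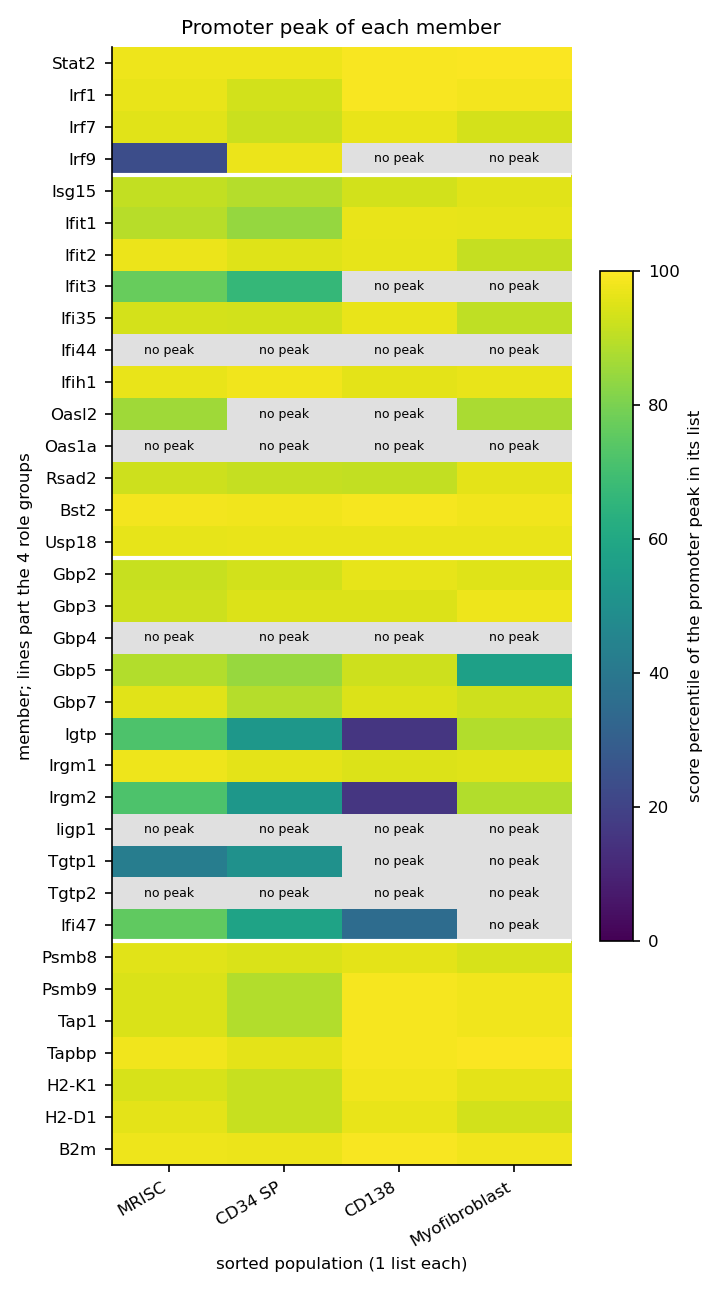
Score percentile of the strongest peak over the promoter window of each member (vertical axis, parted by role) in each sorted population (horizontal axis), with grey cells where no peak of the total list overlaps the window. The 7 presentation genes lie between 88.4 and 99.5 in all 4 populations, while 10 members have at least 1 grey cell.

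The 10 members without 4 open promoters differed in how close the next peak lay. Irf9, the DNA-binding partner of STAT2, was open by this window in MRISC, through a separate weak peak (percentile 23.5), and in CD34 SP, but all 4 populations had a strong peak (percentiles 95.9 to 97.0) centred 546 to 690 bp after its GENCODE start, and its RefSeq start, 414 bp away, was open in all 4. Oasl2, of the oligoadenylate synthetase family, was open in MRISC and Myofibroblast, and the peaks of CD34 SP and CD138 began 64 and 208 bp after its start with percentiles of 78.2 and 89.9. Ifit3, which binds foreign RNA together with Ifit1, was open in MRISC and CD34 SP with percentiles of 76.6 and 66.7, and the nearest peaks of the other populations were at -2048 bp in CD138 and 13745 bp in Myofibroblast. Tgtp1, a GTPase with a near-identical copy in Tgtp2, was open in the same populations at 42.6 and 50.5, by GENCODE but not by its RefSeq start 1926 bp away. Ifi47, a GTPase of the same chromosome 11 group, was open in all but Myofibroblast, where the nearest peak began 6532 bp after the start.

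No population had a peak over the promoter of Ifi44, Oas1a, Gbp4, Iigp1 or Tgtp2, although 3 of them (Gbp4, Iigp1 and Tgtp2) had 57.7, 603 and 67.5 CPM in the stromal cells of the RNA library. Iigp1, a GTPase on chromosome 18 that disrupts parasite vacuoles, had the highest level of all 28 members outside antigen presentation, and its nearest peaks began 5638 bp after the start in MRISC, 417 bp after it in CD34 SP (a peak at percentile 10.1) and 19001 bp after it in CD138, whereas the nearest Myofibroblast peak lay at -59433 bp. Gbp4 had peaks only beyond its end, 28621 to 28695 bp after the start, in MRISC, CD34 SP and CD138. Tgtp2 had no peak of any population within 10 kb of its body. Promoter windows were also cut into every piece of 32 bases, to see how often their sequence recurs. The windows of the 25 members open in all 4 had a median of 100% of pieces found once in the genome (54.3 to 100%). Those of the other 10 had a median of 71.0% (36.8 to 100%), so the ranges overlap. Among these 10, the share was 36.8% at Iigp1, 38.3% at Ifit3, 44.2% at Tgtp2, 60.2% at Gbp4, 65.8% at Tgtp1, 76.2% at Ifi44, 81.8% at Oas1a, 88.5% at Ifi47, 98.5% at Oasl2 and 100% at Irf9. Among the members open in all 4, it was 69.5% at H2-D1 and 77.3% at Igtp. The part of repeated sequence in the missing peaks was not tested. Irgm2 (54.3%) counted as open through peaks that it shares with Igtp, which end 79 to 187 bp before its GENCODE start.

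**Figure D2:**
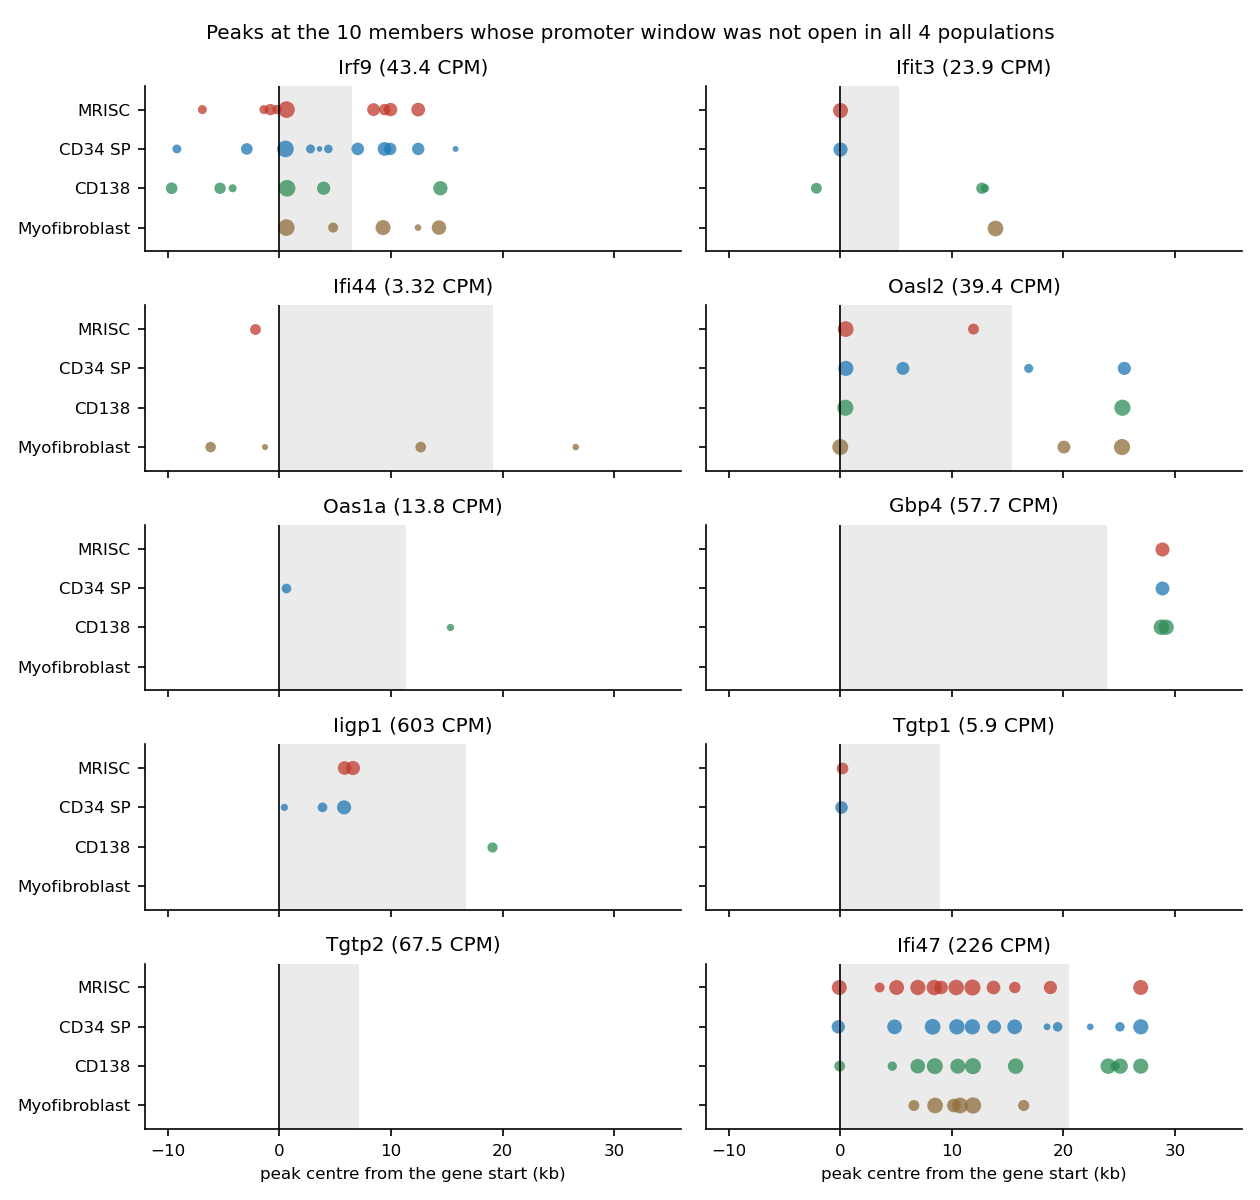
Peaks of the total lists at the 10 members not open in all 4 populations, by the distance of the peak centre from the gene start in kb (horizontal axis, grey span the gene body) and by population (vertical axis), with larger dots for higher score percentiles. Irf9 has a large dot just after its start in all 4 populations, whereas Tgtp2 has none and Gbp4 only beyond its end.

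In the single-cell library, antigen presentation stood far above the other roles. Summed over all stromal cells, the 7 presentation genes reached 15988 CPM (95% interval 15959 to 16017), the 12 GTPases 1843 CPM (1833 to 1853), the 12 antiviral genes 561 CPM (556 to 567) and the 4 regulators 353 CPM (349 to 358). Each transcript gives 1 tag at its 3′ end in this assay, so counts do not scale with transcript length and levels of genes can be set side by side. All intervals are exact Poisson or binomial ones for counting error only. A pooled CPM does not tell more cells with a transcript from more transcript per cell, and the cell-level values further below bear on this.

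The highest cluster by summed level differed between some roles. Regulators ran from 217 CPM in Cxcl13-Mgp to 702 in mesothelium-like cells, a ratio of 3.24 (2.95 to 3.55), and antiviral genes from 480.4 to 1243 CPM in the same clusters, a ratio of 2.59 (2.42 to 2.77). GTPases ran from 1195 CPM in Cxcl13-Mgp to 2714 in Lcn2-Saa3, a ratio of 2.27 (2.22 to 2.32), with Spock3-Stmn2 at 2649. Mesothelium-like cells had 2705 (2593 to 2821), an interval that holds the values of both. Presentation genes varied least, from 11661 CPM in Ptx3-Ebf1 to 19384 in Spock3-Stmn2, a ratio of 1.66 (1.65 to 1.67). In Ptx3-Ebf1 the regulators (564 CPM) and antiviral genes (672) lay above the pooled stromal level, and the GTPases (1249.9) and presentation genes below it. The 10 housekeeping genes, summed, ran only from 9332 to 10749 CPM over the same clusters.

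**Figure D3:**
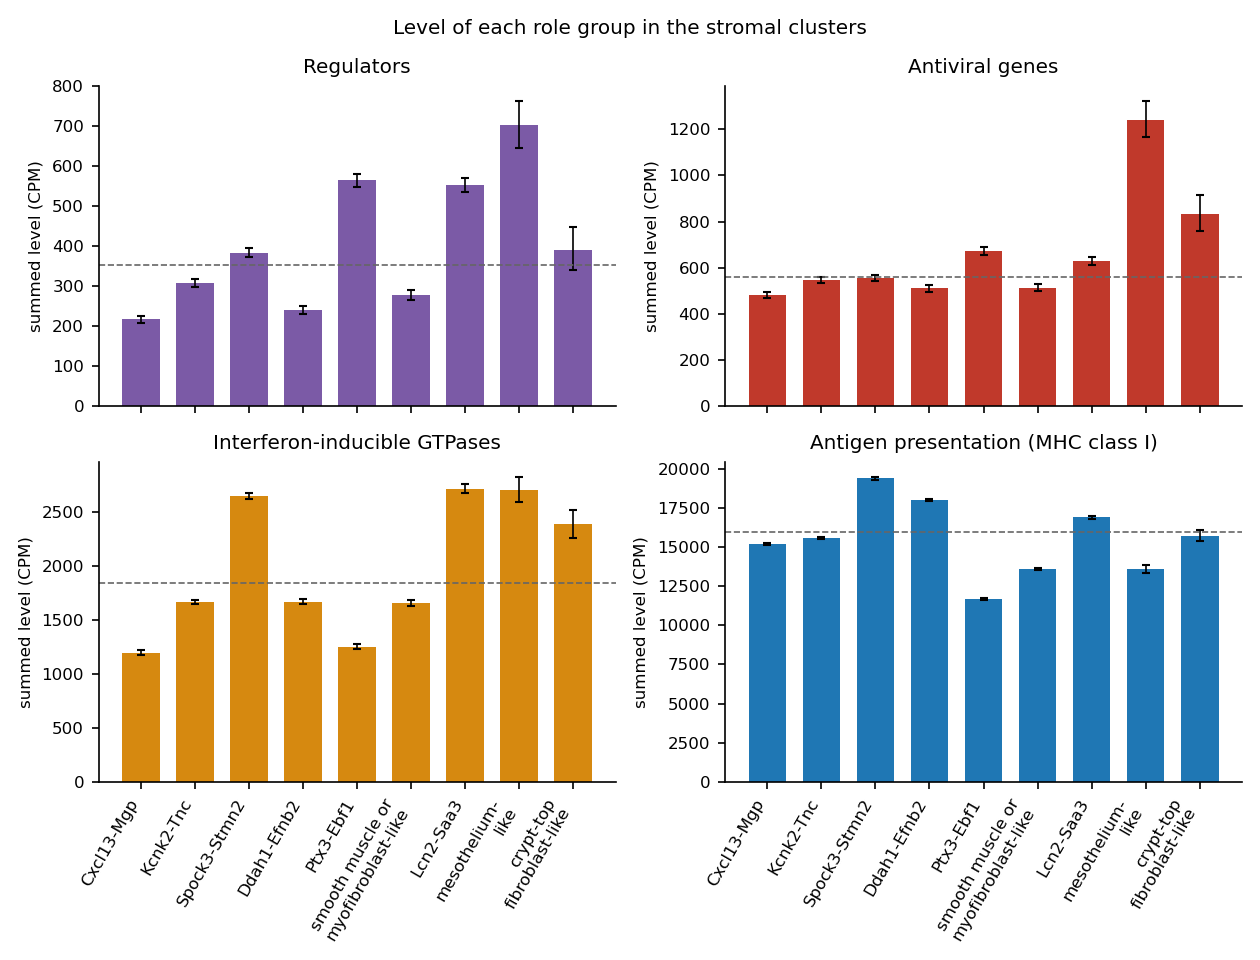
Summed level of each role group (vertical axes, CPM, from 0) in the 9 stromal clusters (horizontal axis), with 95% Poisson intervals as error bars and a dashed line at the level over all stromal cells. Regulators and antiviral genes are highest in mesothelium-like cells (702 and 1243 CPM), GTPases in Lcn2-Saa3 (2714, beside 2705 in mesothelium-like cells) and presentation genes in Spock3-Stmn2 (19384).

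A finer clustering of the same cells parted these extremes further. At a resolution of 1.0 in place of 0.5, a group of 317 cells led by Cemip, Saa3 and Lcn2 held 4981 CPM of GTPases and 20996 CPM of presentation genes, the highest of any finer stromal cluster in both. Iigp1 reached 1534 CPM there, Gbp2 1032, Ifi47 582, Igtp 432, Gbp4 303 and Gbp5 165. At the other end, 489 cells led by Ptx3 and Ptn held 839 CPM of GTPases and 8207 CPM of presentation genes, the lowest in both, while Irf1 stood at 522 CPM in them, beside 519.98 in mesothelium-like cells and less in the other finer clusters. The ratio of highest to lowest cluster was then 5.94 for GTPases and 2.56 for presentation genes, so these ratios depend on how finely the stroma is divided. Early response genes (Fos, Fosb, Jun, Junb, Egr1, Atf3, Ier2 and Nr4a1, a list added after the data were seen), which cells also switch on when tissue is dissociated, summed to 22260 CPM in the Ptx3-Ptn cells and 5274 CPM in the Cemip-Saa3 cells, and their part in these levels was not tested.

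Among the regulators, Irf1 carried most of the difference between clusters. Irf1, the interferon gamma-induced activator of GTPase and class I genes, stood at 106 CPM in Cxcl13-Mgp, 120.2 in Ddah1-Efnb2, 162 in Kcnk2-Tnc, 177 in the muscle-like cluster, 254.8 in crypt-top-like cells, 263 in Spock3-Stmn2, 403 in Lcn2-Saa3, 434 in Ptx3-Ebf1 and 520.0 in mesothelium-like cells. This is a ratio of 4.93 (4.39 to 5.52) between the ends, and it was at least 1.5-fold above the other stromal cells in Ptx3-Ebf1, Lcn2-Saa3 and mesothelium-like cells. The early response list summed to 21249, 12935 and 15480 CPM in these 3 clusters, beside 10364 over all stromal cells. It summed to 3502 CPM in Ddah1-Efnb2, 8308 in Cxcl13-Mgp and 12564 in the muscle-like cluster. The part of this list in the Irf1 level was not tested. Stat2, the type I interferon signal carrier, stood at 40.2 CPM in the muscle-like cluster, 43.0 in Ptx3-Ebf1, 49.8 in Cxcl13-Mgp, 53.3 in Spock3-Stmn2, 53.9 in Ddah1-Efnb2, 55.6 in crypt-top-like cells, 58.2 in mesothelium-like cells, 63.4 in Kcnk2-Tnc and 63.6 in Lcn2-Saa3, a narrow span. Irf9, its partner, stood at 36.7 CPM in Spock3-Stmn2, 37.7 in Cxcl13-Mgp, 41.8 in Ddah1-Efnb2, 43.1 in the muscle-like cluster, 44.5 in Ptx3-Ebf1, 49.3 in Lcn2-Saa3, 50.02 in Kcnk2-Tnc, 59.4 in crypt-top-like cells and 65.6 in mesothelium-like cells. Irf7, which amplifies type I interferon production, was the least abundant at 29.7 CPM over all stromal cells and stood at 16.6 CPM in the muscle-like cluster, 21.1 in crypt-top-like cells, 23.5 in Cxcl13-Mgp, 24.6 in Ddah1-Efnb2, 29.98 in Spock3-Stmn2, 33.0 in Kcnk2-Tnc, 36.6 in Lcn2-Saa3, 42.6 in Ptx3-Ebf1 and 58.2 in mesothelium-like cells.

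Antiviral genes divided into a few broadly present members and many rare ones with large differences. Bst2, or tetherin, which holds budding virus at the cell surface, was present in every cluster, at 258 CPM in the muscle-like cluster, 263 in Spock3-Stmn2, 276 in Ddah1-Efnb2, 277 in Cxcl13-Mgp, 280.5 in Kcnk2-Tnc, 292 in Lcn2-Saa3, 299 in Ptx3-Ebf1, 317 in mesothelium-like cells and 429 in crypt-top-like cells. Ifi35, a partner of other interferon-induced proteins, was as even at 65.0 CPM in Ptx3-Ebf1, 69.0 in Cxcl13-Mgp, 71.3 in Kcnk2-Tnc, 73.7 in Ddah1-Efnb2, 79.6 in Lcn2-Saa3, 81.8 in Spock3-Stmn2, 102 in mesothelium-like cells, 102 in crypt-top-like cells and 106 in the muscle-like cluster. These were the antiviral members of highest level, with 279 and 77.5 CPM over all stromal cells, and their spans of 1.67 and 1.63 were the smallest of the role.

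Isg15, a ubiquitin-like protein that is attached to other proteins, came next in level among the antiviral members and stood at 24.1 CPM in Ddah1-Efnb2, 24.5 in Cxcl13-Mgp, 25.9 in the muscle-like cluster, 26.9 in Kcnk2-Tnc, 41.1 in Spock3-Stmn2, 42.2 in crypt-top-like cells, 50.3 in Lcn2-Saa3, 87.1 in Ptx3-Ebf1 and 181 in mesothelium-like cells. The ratio of 7.51 (6.08 to 9.25) compares mesothelium-like cells with Ddah1-Efnb2, and 4 clusters lay between 24.1 and 26.9 CPM. Ifi44, of uncertain function, stood at 0.562 CPM in Cxcl13-Mgp, 0.580 in Ddah1-Efnb2, 1.18 in the muscle-like cluster, 1.92 in crypt-top-like cells, 1.97 in Spock3-Stmn2, 3.07 in Kcnk2-Tnc, 5.74 in Ptx3-Ebf1, 9.48 in Lcn2-Saa3 and 43.3 in mesothelium-like cells. The 77.1-fold span of Ifi44 (32.1 to 224) rests on 35 UMIs in mesothelium-like cells and 6 in Cxcl13-Mgp. Rsad2, or viperin, which makes a chain-terminating nucleotide against viral polymerases, stood at 0 CPM in crypt-top-like cells, 0.483 in Ddah1-Efnb2, 0.936 in Cxcl13-Mgp, 1.31 in the muscle-like cluster, 1.38 in Kcnk2-Tnc, 1.89 in Spock3-Stmn2, 2.44 in Lcn2-Saa3, 9.16 in Ptx3-Ebf1 and 33.4 in mesothelium-like cells. These rest on 27 UMIs in mesothelium-like cells, 75 in Ptx3-Ebf1 and 5 in Ddah1-Efnb2. Ifit2, which binds viral RNA, was an exception in place: it stood at 5.32 CPM in Lcn2-Saa3, 6.53 in Kcnk2-Tnc, 6.72 in Ptx3-Ebf1, 8.31 in Ddah1-Efnb2, 8.78 in the muscle-like cluster, 9.36 in Cxcl13-Mgp, 9.90 in mesothelium-like cells, 10.5 in Spock3-Stmn2 and 51.7 in crypt-top-like cells, with 27 UMIs in crypt-top-like cells.

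The remaining antiviral members, Ifit1, Ifit3, Ifih1, Oasl2, Oas1a and Usp18, had pooled levels from 13.8 to 39.4 CPM. 5 of the 6 were highest in mesothelium-like cells, and Usp18, a brake on type I receptor signalling, in crypt-top-like cells. Oasl2 stood at 235 CPM (203 to 271) in mesothelium-like cells and between 28.4 and 44.5 CPM in the other 8 clusters.

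GTPases shared the mesothelium-like maximum in part. Those cells were the highest cluster for 7 of the 12 (Gbp2, Gbp3, Gbp5, Gbp7, Igtp, Irgm1 and Tgtp1), Spock3-Stmn2 for Gbp4, Irgm2 and Ifi47, and Lcn2-Saa3 for Iigp1 and Tgtp2. The summed level is led by Iigp1, with 603 of 1843 CPM. Iigp1 stood at 356 CPM in Ptx3-Ebf1, 371 in Cxcl13-Mgp, 427 in mesothelium-like cells, 429 in the muscle-like cluster, 529 in Ddah1-Efnb2, 617 in Kcnk2-Tnc, 832 in crypt-top-like cells, 874 in Spock3-Stmn2 and 1037 in Lcn2-Saa3. Gbp2, a guanylate-binding protein, stood at 183 CPM in Cxcl13-Mgp, 204 in Kcnk2-Tnc, 216 in Ptx3-Ebf1, 265 in Ddah1-Efnb2, 310.4 in crypt-top-like cells, 381 in Lcn2-Saa3, 424 in the muscle-like cluster, 456 in Spock3-Stmn2 and 768 in mesothelium-like cells. Their lists share Spock3-Stmn2 and Lcn2-Saa3 among the high clusters, but mesothelium-like cells were highest for Gbp2 and below the pooled level of 603 CPM for Iigp1. Ifi47 stood at 146 CPM in Cxcl13-Mgp, 153 in Ptx3-Ebf1, 167 in the muscle-like cluster, 219.6 in Kcnk2-Tnc, 230.4 in Ddah1-Efnb2, 239 in crypt-top-like cells, 248 in mesothelium-like cells, 322 in Lcn2-Saa3 and 322 in Spock3-Stmn2, with Lcn2-Saa3 and Spock3-Stmn2 level at the top.

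The GTPases of largest span were rarer. Gbp5, which promotes inflammasome assembly, stood at 16.5 CPM in Cxcl13-Mgp, 19.2 in Ddah1-Efnb2, 19.4 in Kcnk2-Tnc, 23.3 in the muscle-like cluster, 31.9 in Ptx3-Ebf1, 46.0 in crypt-top-like cells, 60.5 in Lcn2-Saa3, 61.2 in Spock3-Stmn2 and 75.5 in mesothelium-like cells, a ratio of 4.58 (3.37 to 6.16). Tgtp1 stood at 1.71 CPM in Ptx3-Ebf1, 3.23 in Kcnk2-Tnc, 4.35 in Ddah1-Efnb2, 5.06 in Cxcl13-Mgp, 5.37 in the muscle-like cluster, 7.57 in Spock3-Stmn2, 10.5 in Lcn2-Saa3, 38.3 in crypt-top-like cells and 40.9 in mesothelium-like cells, but its 418 UMIs in all stromal cells and its near-identical copy Tgtp2 (4782 UMIs) make the split between the 2 genes uncertain. Gbp4, which like Iigp1 had no promoter peak, was highest in Spock3-Stmn2 at 114 CPM and lowest in Cxcl13-Mgp at 28.9. The other 6 GTPases (Gbp3, Gbp7, Igtp, Irgm1, Irgm2 and Tgtp2) had pooled levels from 59.2 to 172 CPM and spans from 1.33 (Irgm2) to 3.78 (Gbp3), and Cxcl13-Mgp or Ptx3-Ebf1 was the lowest cluster for each of them.

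Presentation genes were high in every cluster. B2m stood at 5330.2 CPM in Ptx3-Ebf1, 5803 in mesothelium-like cells, 6267 in crypt-top-like cells, 6505 in Cxcl13-Mgp, 6562 in Kcnk2-Tnc, 6569 in the muscle-like cluster, 7362 in Lcn2-Saa3, 7455 in Ddah1-Efnb2 and 8337 in Spock3-Stmn2. H2-D1, a class I heavy chain, stood at 3798 CPM in Ptx3-Ebf1, 4258 in mesothelium-like cells, 4301 in the muscle-like cluster, 5389.7 in Cxcl13-Mgp, 5533 in Kcnk2-Tnc, 5692 in crypt-top-like cells, 5800.1 in Lcn2-Saa3, 6499 in Ddah1-Efnb2 and 6819 in Spock3-Stmn2. H2-K1 stood at 1703 CPM in Ptx3-Ebf1, 1856 in the muscle-like cluster, 2258 in Cxcl13-Mgp, 2375 in Kcnk2-Tnc, 2460.0 in mesothelium-like cells, 2521 in crypt-top-like cells, 2560.4 in Lcn2-Saa3, 2791 in Ddah1-Efnb2 and 2906 in Spock3-Stmn2. All 3 share the order Spock3-Stmn2, Ddah1-Efnb2 and Lcn2-Saa3 from the top, and Ptx3-Ebf1 was lowest in each. Tap1, a subunit of the peptide transporter into the endoplasmic reticulum, stood at 109.7 CPM in Ptx3-Ebf1, 119.9 in the muscle-like cluster, 130.0 in mesothelium-like cells, 131 in Cxcl13-Mgp, 189.9 in Ddah1-Efnb2, 192 in crypt-top-like cells, 192 in Kcnk2-Tnc, 213 in Spock3-Stmn2 and 213 in Lcn2-Saa3. Tapbp, or tapasin, which holds class I molecules at that transporter, stood at 229 CPM in the muscle-like cluster, 268 in Ptx3-Ebf1, 302 in Lcn2-Saa3, 316 in Kcnk2-Tnc, 351 in Cxcl13-Mgp, 371 in Spock3-Stmn2, 387 in Ddah1-Efnb2, 397 in crypt-top-like cells and 411 in mesothelium-like cells. The immunoproteasome subunits Psmb8 and Psmb9 spanned ratios of 1.69 (1.61 to 1.77) and 1.57 (1.46 to 1.70), again with Ptx3-Ebf1 lowest.

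**Figure D4:**
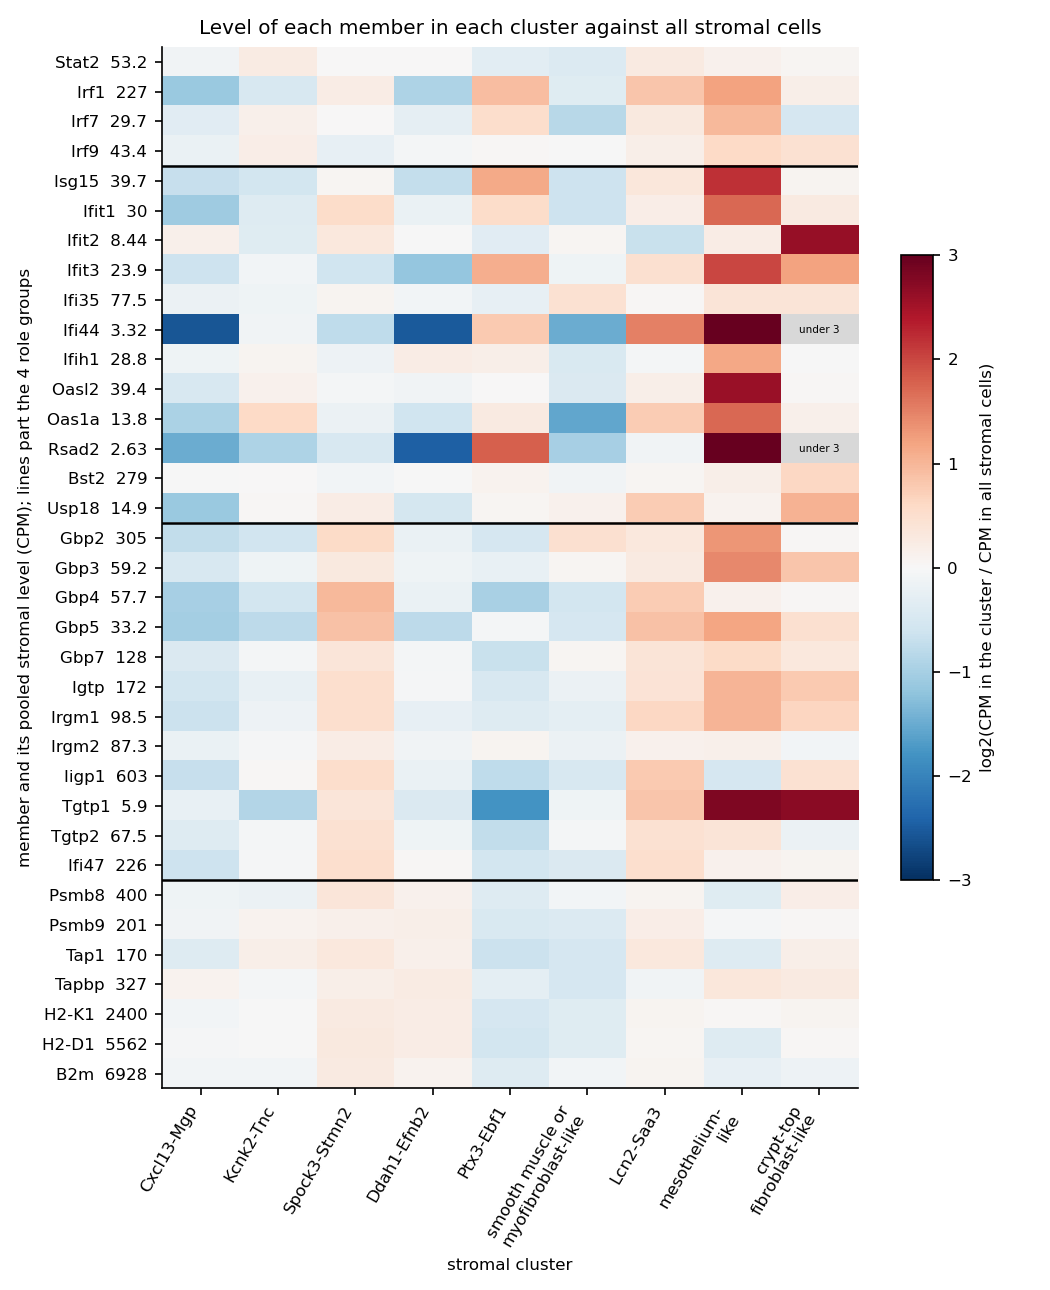
Level of each member (vertical axis, with its CPM over all stromal cells) in each stromal cluster (horizontal axis), as log2 of the cluster's CPM over that of all stromal cells, with colours limited at 3 in both directions and grey where a cluster held under 3 UMIs. Mesothelium-like cells are the highest cluster for 8 of 12 antiviral genes and 7 of 12 GTPases, and the presentation genes stay near white.

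Read against all genes, these cluster differences were unevenly shared. Counting members at 10 CPM or more in a cluster and at least 1.5-fold above the other stromal cells, Cxcl13-Mgp had 0 of 31 (1.90% of all genes), Kcnk2-Tnc 1 of 31 (Oas1a, 3.41%), Ddah1-Efnb2 0 of 31 (1.17%) and the muscle-like cluster 0 of 31 (12.7%). Spock3-Stmn2 had 8 of 32 (3.43% of all genes), of which 7 were GTPases. Lcn2-Saa3 also had 8 of 32 (7.42%), with 5 GTPases. Ptx3-Ebf1 had 5 of 31 (7.01%), namely Irf1, Irf7, Isg15, Ifit1 and Ifit3, and no GTPase. Without the 59 stromal cells richest in antiviral UMIs, which are described further below, 3 of these 5 passed, because Ifit1 went from 44.0 to 31.0 CPM (1.23-fold, 1.07 to 1.41) and Irf7 from 42.6 to 40.6 (1.49-fold, 1.32 to 1.67). Those cells were chosen by their antiviral UMIs, so a fall of antiviral genes such as Ifit1 without them was fixed in advance. Mesothelium-like cells had 17 of 34 (19.8%), with 8 antiviral genes, 6 GTPases and 3 regulators, and crypt-top-like cells 8 of 33 (15.9%). Without the same 59 cells Irf9 no longer passed in mesothelium-like cells (1.45-fold, 1.07 to 1.92) and Ifi47 passed in Lcn2-Saa3 (1.504-fold, 1.44 to 1.57). No presentation gene passed this fold in any cluster. In all, 23 of 35 members passed it somewhere, beside 46.2% of genes, and the median ratio of highest to lowest cluster was 7.90 for antiviral genes, 3.08 for GTPases, 2.64 for regulators, 1.71 for presentation genes and 2.15 over 10078 genes.

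Mesothelium-like cells had few cells and a median of 9647 UMIs each, the deepest of the stromal clusters. Markers of mesothelium summed to 4619 CPM in them (63.3 over all stromal cells). In cells thinned to 3000 UMIs each, their antiviral genes stood at 1260 CPM (73 cells), and at 1114 without the 3 cells richest in antiviral UMIs, beside 548 and 520.5 for all stromal cells. Markers of macrophages or monocytes were at 28.5 CPM there (23.6 over all stromal cells) and those of dendritic, B and mast cells were at 0, while markers of glia stood at 153.5 CPM (4.79 over all stromal cells), those of blood endothelium at 132 (36.02) and those of interstitial cells of Cajal at 104 (24.4), and the part of these in the levels was not tested.

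The members also differed in how they spread over single cells, once each cell was thinned to 3000 UMIs (10408 stromal cells, 722 left out as shallower). B2m was seen in 99.99% of cells, H2-D1 in 99.95% and H2-K1 in 98.8%. Iigp1 was seen in 56.8% (55.8 to 57.7%), Bst2 in 53.5%, Gbp2 in 42.4%, Irf1 in 35.98%, Isg15 in 8.22% and Rsad2 in 0.384% (0.275 to 0.523%). Before thinning the shares were higher, for example 69.0% for Iigp1 and 14.8% for Isg15. The epithelium-like cluster, which is not stroma, is mixed: beside epithelial markers (3737 CPM) it held markers of cycling cells (934 CPM) and T cells (90.4 CPM, beside 1.30 over all stromal cells), so it is no clean measure of background. In its 61 thinned cells the shares were 32.8% for Iigp1, 41.0% for Bst2, 29.5% for Gbp2, 36.1% for Irf1 and 4.92% for Isg15. Free RNA holds the members too, so a single UMI does not show that a cell makes the transcript. Empty droplets had 542 CPM of Iigp1 (603 over all stromal cells), 329.5 CPM of Irf1 (227) and 26.1 CPM of Isg15 (39.7). The medians of depth before thinning were 6049 UMIs in stromal and 10878 in epithelium-like cells.

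Counts of some members varied more between cells than counting error alone gives. Of the 31 members at 10 CPM or more over all stromal cells, 13 had a variance over mean of 1.5 or more across the thinned cells, where pure counting gives 1, beside 5.21% of all genes. Iigp1 (3.84), Ifit3 (3.49), Gbp2 (3.24), H2-D1 (2.84), B2m (2.74), Irf1 (2.25) and Isg15 (2.19) had the largest values among the 13. H2-D1 and B2m are among them although nearly every cell held both, so this ratio alone does not show bunching in few cells. The share over all genes was not matched for level. Summed by role, the ratio was 6.64 for GTPases, 4.92 for presentation genes, 2.32 for antiviral genes and 1.92 for regulators, beside 1.76 for housekeeping genes. GTPase UMIs per cell ran from 0 to 73 with a median of 4, and 933 cells (8.96%) had none. The top 1% of cells held 46.5% of all Ifit3 UMIs, 35.3% of Ifit1 and 32.1% of Isg15, but 2.17% of B2m.

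Most UMIs of the antiviral sum lay in cells with few of them. Bst2 gave 8660 of these 17118 UMIs and Ifi35 2398, so the lower ranges rest largely on these 2 genes. The rarer Ifit3, Ifit1 and Isg15 were more concentrated, as given above. The 12 antiviral genes summed to 0 UMIs in 2580 thinned stromal cells, to 1 or 2 in 5563, to 3 to 5 in 2012, to 6 to 9 in 194 and to 10 to 53 in 59 cells. These 59 cells, 0.567% of the total, held 5.60% of the antiviral UMIs, while the cells with 1 or 2 held 45.4% and those with 3 to 5 held 41.3%. They are a range cut from a count and not a cell type, and the 194 cells just under the cut show that the scale is continuous. The antiviral count itself chose the cells, so only other genes are read across the ranges.

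GTPases went with the antiviral count. Their summed level was 1444 CPM in cells with 0 antiviral UMIs and 5170 CPM (4840 to 5516) in the 59 cells, and the median per cell was 3 UMIs in the first and 10 in the second. Regulators stood at 319 and 904 CPM (769 to 1055), with medians of 1 and 2 UMIs per cell. Presentation genes differed less, at 15248 and 17130 CPM and medians of 45 and 54 UMIs, and housekeeping genes stood at 9975 and 9396 CPM. Cxcl9 and Cxcl10, interferon-induced chemokines that are not members, stood at 181 and 2322 CPM together, but their medians of 0 and 2 UMIs show that few cells gave most of this. Early response genes were also higher in the 59 cells (15090 against 10399 CPM), their part was not tested, and the median depth before thinning was 7257 UMIs against 6097.

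**Figure D5:**
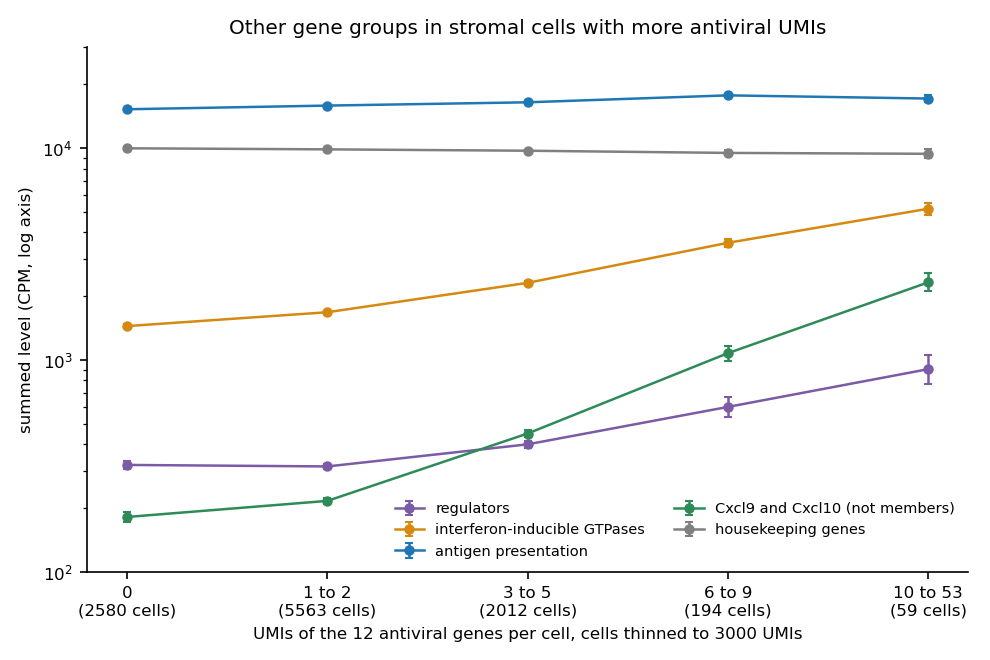
Summed level of 3 member groups, of Cxcl9 with Cxcl10 and of housekeeping genes (vertical axis, CPM, log scale, with 95% Poisson intervals) in thinned stromal cells grouped by their UMIs of the 12 antiviral genes (horizontal axis). GTPases go from 1444 to 5170 CPM and regulators from 319 to 904, while presentation genes go from 15248 to 17130.

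Within the 59 cells single members of the same role differed. Among regulators, Irf7 was 7.14-fold (4.99 to 9.92) above the other stromal cells, Stat2 3.04-fold, Irf1 2.27-fold and Irf9 1.28-fold (0.614 to 2.37). Among GTPases, Gbp5 was 6.83-fold (4.78 to 9.49) and Gbp4 4.75-fold above, Iigp1 2.28-fold and Irgm2 1.43-fold (0.897 to 2.18). Among presentation genes, Tap1 was 2.27-fold (1.76 to 2.89), Psmb9 1.90-fold and Psmb8 1.41-fold above, whereas B2m (1.09), H2-D1 (1.02), H2-K1 (0.997) and Tapbp (0.988) were near 1. The transporter and the immunoproteasome thus differed from the class I molecules themselves in these cells. Of all thinned stromal UMIs of a gene, these cells held 49.2% for Rsad2, 28.8% for Ifit3, 18.8% for Ifi44, 18.5% for Isg15 and 16.7% for Ifit1, but 2.22% for Bst2 and 1.83% for Ifi35, which is a description since the cells were chosen on these genes.

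The antiviral-rich cells came from 8 of the 9 stromal clusters. They were 19 of 1116 thinned cells in Ptx3-Ebf1 (1.70%, 1.03 to 2.65%), 16 of 1782 in Spock3-Stmn2 (0.898%, 0.514 to 1.45%), 7 of 912 in Lcn2-Saa3 (0.768%), 7 of 1915 in Kcnk2-Tnc (0.366%), 3 of 1069 in the muscle-like cluster (0.281%), 2 of 1564 in Ddah1-Efnb2 (0.128%) and 2 of 1906 in Cxcl13-Mgp (0.105%, 0.0127 to 0.379%). Mesothelium-like cells gave 3 of 73 (4.11%, 0.856 to 11.5%) and crypt-top-like cells 0 of 71, which allows a share of up to 4.23% by the limit of 3 counts (exact upper bound 5.06%). None of the 59 cells had a UMI of the T cell, B cell, dendritic cell, neutrophil, mast cell or epithelial marker lists, Ptprc was at 0, and 4 had a UMI of the macrophage or monocyte list (22.6 CPM beside 24.2 in cells with 0 antiviral UMIs). Glia markers had UMIs in 2 of the 59 cells (56.5 CPM beside 3.49), and the part of all these lists was not tested. No doublet caller was run, and without the 5% of cells with the most UMIs 55 of the 59 were left. Without the 59 cells, the antiviral level of Ptx3-Ebf1 went from 663 to 586 CPM and that of all stromal cells from 548 to 520.5, so Ptx3-Ebf1 stayed above the pooled level, while Rsad2 went from 6.87 to 3.04 CPM and Isg15 from 83.0 to 59.6 CPM in that cluster. The cells were chosen on these genes, so the direction of these changes was fixed in advance. With each cell thinned to 2000 UMIs in place of 3000, 20 cells reached 10 antiviral UMIs, and at a minimum of 6 there were 253.

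Other genes of the pathway place the members. Of 9 interferon genes, 8 had 0 UMIs in all stromal cells (which allows up to 3 of 70820980) and Ifng had 4. Of 9 receptor and kinase genes 7 reached 10 CPM, with Ifngr1 at 385 CPM, Jak1 at 149, Ifnar2 at 147 and Il10rb at 73.0, and Ifnlr1, the specific chain of the type III receptor, had 9 UMIs. Ifngr1, the interferon gamma receptor chain, was highest in Lcn2-Saa3 at 765 CPM and lowest in mesothelium-like cells at 99.0, where Ifnar2, of the type I receptor, was highest at 285. Of 11 other regulators 9 reached 10 CPM, among them the inhibitor Socs3 (572 CPM), Irf8 (257) and Stat3 (126). Socs3 stood at 1456 CPM in Ptx3-Ebf1 and 167 in Ddah1-Efnb2. Of 8 sensor genes 5 reached 10 CPM, led by Zbp1 (59.4 CPM), and so did 17 of 19 other effectors, led by Ifitm3 (3591), Ifitm1 (2014), Ifitm2 (1304) and Lgals3bp (250.2). All 12 further class I pathway genes did, led by H2-T23 (619), Calr (613), H2-Q4 (566) and Pdia3 (563), and 1 of the 12, Psme1 in mesothelium-like cells, passed 1.5-fold in a cluster.

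Around the genes, member peaks were shared between populations more often than peaks of all protein-coding genes, a comparison not matched for expression or gene length. Peaks in the gene bodies with 10 kb on both sides numbered 209 (MRISC), 230 (CD34 SP), 209 (CD138) and 172 (Myofibroblast), and 12 of the 35 windows overlap that of another member, so each peak was counted once. Merged over the 4 total lists they formed 379 regions, of which 77 (20.3%) were open in all 4 populations and 215 (56.7%) in 1 only, beside 9.13% and 74.7% of the 310998 regions at all protein-coding genes. Of the members, 31 of 35 reached 10 CPM, beside 8059 of 21938 genes. The part of expression and gene length in these shares was not tested. Of the regions open in 1 population, 67 belonged to CD34 SP, 56 to CD138, 46 to MRISC and 46 to Myofibroblast. At all genes CD34 SP has the fewest such regions (11.7%, beside 17.7% of all regions at members), and CD138 the most (23.7% and 14.8%). The specific lists were found to hold exactly the total peaks that overlap no peak of the other 3 lists.

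Member genes are shorter than others (median 10292 bp against 17425), and the part of length in the ratios below was not tested. In MRISC, 7 members had 3 or more specific peaks (39.4% of all genes), and in CD34 SP 11 did (27.8%). The numbers were 11 in CD138 (44.1%) and 7 in Myofibroblast (43.9%). Dividing the mean number of specific peaks per member by the mean per gene gave 0.474 (MRISC), 0.998 (CD34 SP), 0.474 (CD138) and 0.395 (Myofibroblast). With the gene bodies alone, CD34 SP gave 0.643, CD138 0.205 and Myofibroblast 0.205, and with 50 kb on both sides Myofibroblast gave 0.611. Per 100 kb of window the same ratios were 0.975, 2.05, 0.974 and 0.811. By both measures CD34 SP had the highest ratio of the 4, although its list of specific peaks is the shortest (49629 peaks).

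24 of the 35 members had at least 3 specific peaks of some population, beside 67.0% of all protein-coding genes. The median percentiles of the specific peaks at members were 38.8 (MRISC), 25.5 (CD34 SP), 37.8 (CD138) and 33.3 (Myofibroblast), beside 28.9, 22.4, 34.7 and 38.7 for all specific peaks in the same order. The regulator Irf9 had 5 in MRISC, 7 in CD34 SP and 4 in CD138, all at percentiles between 2.54 and 57.6. Irf7 had 4 in Myofibroblast at percentiles of 38.8 to 49.0, of which 1 lay before its start (-5051 bp). Stat2 had 5 in CD138, the strongest (84.2) centred 27835 bp after the start, beyond the gene's end. Irgm1 had 6 in CD34 SP, centred 2812 to 19204 bp after the start with percentiles of 30.2 to 54.2, and Usp18 had 6 in CD138, of which 1 at -2040 bp reached 74.8.

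Among the other antiviral members, Ifi35 had 4 specific peaks in MRISC and 5 in CD34 SP, and Ifih1, a sensor of long viral RNA, had the same numbers. Isg15 and Bst2 had 4 each in CD34 SP, Ifit1, Ifit2 and Ifit3 had 3 each in CD138, and Ifi44 and Rsad2 had 4 and 3 in Myofibroblast. Among GTPases, Irgm2 had the most of any member, with 6 (MRISC), 4 (CD34 SP), 5 (CD138) and 3 (Myofibroblast), in a gene model that overlaps Igtp (4 in MRISC). Ifi47 had 3 in MRISC and 3 in CD34 SP, Gbp7 3 in CD34 SP and Gbp2 3 in Myofibroblast. Of the presentation genes, Psmb8 and Tap1 had 5 in CD138 and Psmb9 4, in windows that overlap. B2m had 4 in CD138 and 3 each in CD34 SP and Myofibroblast, and Tapbp had 3 each in CD34 SP and Myofibroblast.

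12 of the 215 specific peaks at members reached the 75th percentile of their total list. CD138 had 6 of them (10.7% of its specific peaks at members, beside 4.404% of all its specific peaks), Myofibroblast 5 (10.9% beside 8.85%), MRISC 1 (2.17% beside 1.25%) and CD34 SP 0 of 67 (beside 0.171%). 3 of the 6 in CD138 lie in the class II region of chromosome 17, where Psmb9, Tap1 and Psmb8 stand side by side: chr17:34180553-34180898 (percentile 89.2), chr17:34196319-34196973 (79.5) and chr17:34201609-34202044 (82.5, mm10). The first lies just beyond the end of Psmb9, the second inside Tap1 near its end, before the start of Psmb8, and the third just beyond the end of Psmb8. The other 3 in CD138 lay at Stat2, Ifi47 and Gbp4, and the 1 in MRISC at Ifih1. In Myofibroblast the 5 lay at Irf1, Irgm2, Ifit3, B2m and Bst2, with percentiles from 77.3 to 84.5. The RNA came from a female mouse on DSS and the peaks from males with no treatment named, so the levels and the peaks are set side by side only.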

How the data were processed

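The single-cell table holds UMI counts per gene and cell as deposited, made by the authors with Cell Ranger per the submitters' processing notes, which also name Seurat and bcl2fastq (matrix header version 3.0.0, genome mm10). Each ATAC peak list holds a score per peak as deposited by the authors; the notes name bcl2fastq and bedtools, and they do not state which program called the peaks, what its score measures or how 2 libraries gave 1 list. Scores were therefore used only as percentiles within a list. The 12 bulk libraries were not analysed here, and 1 pathway gene is not reported here.

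Cells were clustered with scanpy 1.11.5, leidenalg 0.10.2 and scikit-learn 1.9.0 (2000 variable genes without interferon genes, 30 components, 15 neighbours, resolution 0.5) in Python 3.11.15 with numpy 2.4.6, pandas 2.3.3 and scipy 1.17.1. Counts were summed per cluster and given per 1000000 UMIs (CPM). Intervals are exact 95% ones for counting error only. No doublets were removed. Cell-level values used cells thinned to 3000 UMIs. Free RNA was estimated from plasma cell, B cell and epithelium genes, with empty droplets of 1 to 100 UMIs as its profile. Peaks were joined to GENCODE vM21 protein-coding genes with bedtools 2.31.1, sequences were read with pyfaidx 0.9.0.4 or taken from RefSeq windows, all 37 of which equal the genome, and plots were drawn with matplotlib 3.10.9. With no replicates there was no test. The statistics were tested on simulated data.

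The members and lists were chosen with earlier results of these data known. Values in every cluster were given for the 3 members of highest level in each role and up to 3 of largest ratio between clusters. Peaks were described for members open in fewer than 4 populations or with at least 3 specific peaks of 1 population. Alternatives were thinning, removal of free RNA, stricter cell filters, other resolutions, interferon genes allowed in the clustering, other windows and gene starts, and specificity called again.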

Additional observations from a re-analysis of the deposited data

How the results depend on the processing

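Of 81 alternative values, 53 moved by less than their counting error or by less than 1.5 times for counts, and 28 moved by more. The ratio between the highest and lowest cluster was 4.02 for regulators, 2.85 for antiviral genes, 2.55 for GTPases and 1.79 for presentation genes after free RNA was subtracted. At resolution 1.0 it was 3.58 for regulators, 5.94 for GTPases and 2.56 for presentation genes, and at resolution 0.3 it was 2.16 for GTPases. Thinned cells gave 2.38 for GTPases and 1.62 for presentation genes, and clustering with interferon genes allowed gave 2.93 and 1.61. Antiviral-rich cells numbered 20 at 2000 UMIs per cell and 253 at a minimum of 6. With gene bodies only, the ratio of total peaks per member to all genes was 0.769 (CD34 SP), 0.493 (CD138) and 0.471 (Myofibroblast), and that of specific peaks 0.643, 0.20541 and 0.2053. Specific peaks gave 0.611 in Myofibroblast with 50 kb on both sides and 0.846 in MRISC when specificity was called again above the median score. In the central 200 bp of promoter peaks the words lay in 23.3% (IRF word), 16.7% (other spacing), 10.0% (gamma-activated site), 6.67% (AP-1), 26.7% (CCAAT) and 0% (NF-kB consensus) of members. The causes were not tested. RefSeq starts, leaving out the antiviral-rich cells, 2000 UMIs, the minimum of 6, another random draw and leaving out the deepest cells were chosen after seeing the data. No paired analysis was possible because there was 1 RNA library, and 1 peak list of each kind per population. Rare members such as Rsad2 and Ifi44 are limited by their few UMIs, and 722 stromal cells were too shallow to thin.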

Other observations

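Class II antigen presentation genes, which are not members, followed another order than the class I genes. Cd74, the class II chaperone, stood at 2018 CPM in mesothelium-like cells and 65.9 CPM over all stromal cells, and H2-Ab1, H2-Eb1 and H2-Aa, which encode class II chains, stood at 389.98, 301 and 235 CPM in the same cells. All 5 listed class II genes were at least 1.5-fold above the other stromal cells there. Cd74 was at similar levels in the epithelium-like cluster, which also holds T cell and cycling markers (2015 CPM) and in the Igkc-Jchain cluster of plasma cell and macrophage genes (2291 CPM). Ciita, the class II master regulator, had 10 UMIs in all stromal cells.

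Cxcl9 and Cxcl10, chemokines that draw T cells, were highest in different clusters. Cxcl9 stood at 229 CPM in Lcn2-Saa3 and 190.5 in Spock3-Stmn2 but at 8.67 in mesothelium-like cells, where Cxcl10 was highest at 505 CPM. Ifi27, an interferon-induced mitochondrial protein, stood at 605 CPM in mesothelium-like cells and 27.7 in Spock3-Stmn2.

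Across the 10408 thinned cells, Pearson's r between the summed UMIs of regulators and GTPases was 0.298, that of GTPases and presentation genes 0.263, that of antiviral genes and GTPases 0.233, that of antiviral and presentation genes 0.085 and that of regulators and presentation genes -0.011. These points share 1 library and 1 depth, and the values are a description.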
